A study of Mus musculus with 8 samples.

Results

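Fibro-adipogenic progenitors (FAPs) and fibroblasts of gastrocnemius (GAS) muscle were followed through 10 marker genes: *Pdgfra*, *Ly6a*, *Cd34*, *Dpp4*, *Pi16*, *Osr1*, *Gli1*, *Mfap5*, *Dpt* and *Gsn*. They were selected by name as known markers, with earlier results of these data known, out of 22664 gene symbols in the table, and each had 1 probe set. Adult male C57/Bl6j mice were injected in GAS at about 10 weeks of age with a serotype 1 adeno-associated virus (AAV). In 1 leg the AAV carried a U6 promoter and a short hairpin RNA (sh-RNA) that targets MYTHO (MYTHO-KD), and in the contralateral leg a scramble sh-RNA under the same promoter (scramble). Muscles were taken 3 months later, at 22 weeks of age. Clariom S Mouse arrays were run on total RNA of whole muscle, with 4 arrays per group. The U6 promoter is not restricted to muscle fibers, both groups carry AAV and a hairpin, and the knockdown rests on a single sh-RNA.

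FAPs are the main mesenchymal cells between muscle fibers. They carry the PDGF receptor alpha, the surface antigen Sca-1 (encoded by *Ly6a*) and CD34, deposit matrix after injury and support satellite cells, and can turn into adipocytes or myofibroblasts. Fibroblasts that share *Dpp4* and *Pi16* lie mainly around vessels and in connective tissue sheaths and are regarded as a progenitor-like state. None of these markers is exclusive. *Cd34* and *Ly6a* are also made by endothelial cells, *Cd34* by satellite cells, *Dpp4* by lymphocytes, and *Gsn* by many cell types.

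The table gives 1 average and 1 SD for each group on the log2 scale, so values of single arrays are not shown, no array could be omitted in turn, and contralateral legs could not be matched. Over all 22206 probe sets the median SD was 0.27 in either group and the median difference -0.01. The target of the hairpin, listed as *D230025D16Rik*, was at 20.2% of the scramble signal (95% interval 12.7% to 31.9%). All 10 markers were marked as expressed in both groups. Since the RNA is of whole muscle, more cells of a type and more RNA per cell cannot be told apart.

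After 12 weeks of MYTHO-KD, 5 of the 10 markers were higher than in scramble muscle, with an unadjusted p under 0.05 by the moderated test of limma: *Pi16*, *Mfap5*, *Ly6a*, *Gsn* and *Cd34*, against 6.48% of all probe sets. *Pi16* and *Mfap5* also passed the 2-fold threshold of the study, which 0.860% of all probe sets passed upward. No marker was lower by the same rule, against 5.52% of all probe sets. *Pdgfra*, *Osr1*, *Dpt*, *Dpp4* and *Gli1* did not pass. The median log2 difference of the 10 markers was 0.51 and their differences ran from -0.30 to 1.14. In sign alone 8 of the 10 were higher, against 46.9% of all probe sets. With p-values adjusted by Benjamini-Hochberg across the whole table, no marker had a p under 0.05 in limma's test, against 0.275% of all probe sets, and the lowest adjusted p among the markers was 0.108.

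**Figure D1:**
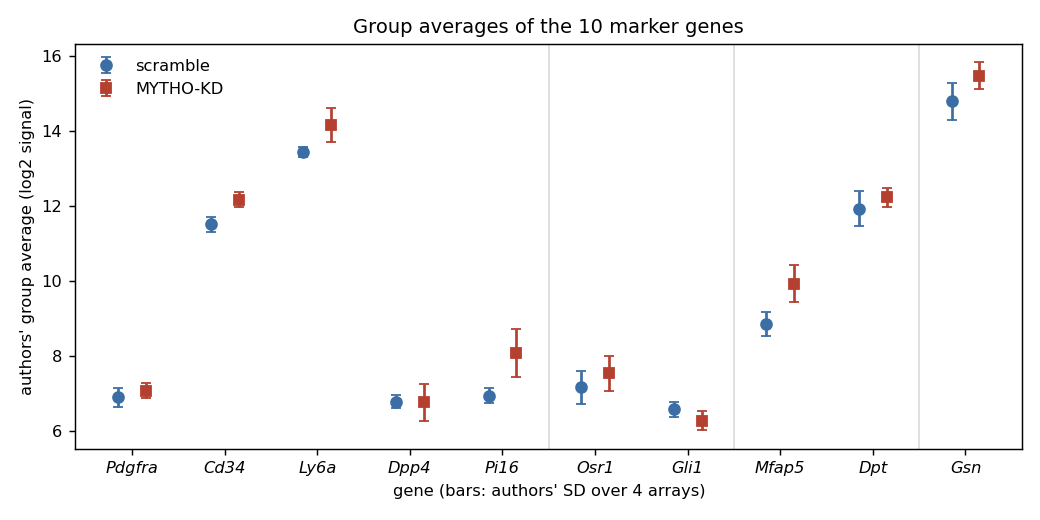
Authors' group averages of the 10 markers (log2 signal, vertical axis) in scramble (blue circles) and MYTHO-KD (red squares), with bars for the authors' SD over 4 arrays and vertical lines between surface proteins, transcription factors, matrix proteins and the actin regulator. The averages of *Pi16* (6.94 and 8.08) and *Mfap5* (8.84 and 9.92) lie farthest apart, while those of *Dpp4* (6.78 and 6.76) lie together; heights of different genes come from different probes and are not comparable.

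Among the surface proteins, the receptor that defines FAPs did not pass the test. *Pdgfra*, on chromosome 5 from 75152291 to 75198204 (mm10), encodes the tyrosine kinase receptor for PDGF. Its average was 6.89 in scramble (SD 0.26) and 7.07 in MYTHO-KD (SD 0.19). The difference of 0.18 was smaller than the SD of either group, and its 95% interval ran from -0.22 to 0.58 (unadjusted p = 0.342, limma). The data therefore allow for *Pdgfra* in MYTHO-KD any level from 86.1% to 149% of scramble.

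*Cd34*, on chromosome 1 from 194938821 to 194961292, encodes a sialomucin of progenitor and endothelial surfaces. It was 11.51 in scramble and 12.16 in MYTHO-KD, with an SD of 0.20 in both groups. The groups were 3.25 SDs apart, the widest separation relative to the larger SD among the 10 markers. The difference of 0.65 (standard error 0.173, 95% interval 0.27 to 1.03, unadjusted p = 0.00283, adjusted p = 0.154, limma) corresponds to 157% of the scramble signal.

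*Ly6a*, on chromosome 15 from 74994877 to 74998031, encodes Sca-1, a lipid-anchored surface protein used to sort FAPs. It was 13.44 in scramble with an SD of 0.13, and 14.16 in MYTHO-KD with an SD of 0.45. The difference was 0.72 (standard error 0.218, 95% interval 0.24 to 1.20, unadjusted p = 0.00647, adjusted p = 0.207, limma). The SD in MYTHO-KD was 3.46 times that in scramble, a ratio reached by 4.49% of all probe sets, so the MYTHO-KD arrays differed among themselves more than the scramble arrays did.

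*Pi16* and *Dpp4*, which mark the same progenitor-like fibroblasts, had unlike values. *Pi16*, on chromosome 17 from 29318877 to 29329413, encodes a membrane-anchored protein of the CAP domain family. It was 6.94 in scramble (SD 0.21) and 8.08 in MYTHO-KD (SD 0.64), the largest difference of the 10. Its log2 difference was 1.14 (standard error 0.278, 95% interval 0.53 to 1.75, unadjusted p = 0.00151, adjusted p = 0.126, limma), or 220% of the scramble signal. Here too the spread was wider in MYTHO-KD, by 3.05 times. *Dpp4*, on chromosome 2 from 62330073 to 62412231, encodes the serine peptidase CD26. It was 6.78 in scramble (SD 0.17) and 6.76 in MYTHO-KD (SD 0.49), a difference of -0.02 with a 95% interval from -0.53 to 0.49 (unadjusted p = 0.933, limma). The interval of *Dpp4* ended below the lower limit of that of *Pi16*, but the difference between the genes was not tested, since it needs the values of single arrays.

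The 250 bases before the start sites of *Pi16* and *Dpp4* are shown because *Pi16* passed the test and *Dpp4* did not, and those before the first start site of *Gsn* for contrast in base composition. They come from RefSeq on GRCm38.p6, the build that corresponds to mm10, and each is written along the strand of its gene. Lower case marks the window and capitals mark a CCAAT box (CCAAT), TATA box (TATAAA) or GC box (GGGCGG), searched on both strands.
*Pi16*, chr17:29318632-29318881, + strand: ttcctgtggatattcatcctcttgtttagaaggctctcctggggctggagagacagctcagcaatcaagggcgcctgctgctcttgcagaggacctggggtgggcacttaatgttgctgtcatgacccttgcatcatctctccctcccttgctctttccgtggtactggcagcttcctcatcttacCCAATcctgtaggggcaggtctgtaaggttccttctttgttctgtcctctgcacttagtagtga
*Dpp4*, chr2:62412232-62412481, - strand: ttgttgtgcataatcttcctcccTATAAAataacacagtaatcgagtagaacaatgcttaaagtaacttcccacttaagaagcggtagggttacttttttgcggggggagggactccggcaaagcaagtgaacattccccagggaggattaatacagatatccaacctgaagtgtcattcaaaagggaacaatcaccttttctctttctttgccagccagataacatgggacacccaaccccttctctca
*Gsn*, chr2:35256109-35256358, + strand: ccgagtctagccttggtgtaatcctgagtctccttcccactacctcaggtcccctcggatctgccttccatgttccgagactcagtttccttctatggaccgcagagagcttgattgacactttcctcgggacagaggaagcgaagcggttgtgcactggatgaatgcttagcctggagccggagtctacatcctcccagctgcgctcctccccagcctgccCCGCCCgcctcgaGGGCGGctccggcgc
The *Pi16* window held 1 CCAAT box, which 33.8% of 32851 mouse windows of this length also hold. The *Dpp4* window held 1 TATA box, 227 bases before the start, and 12.4% of all windows hold one. The *Gsn* window shown held 2 GC boxes within 28 bases of the start (32.7% of all windows hold one). It held 15 CpG pairs, against 2 in *Pi16*, 4 in *Dpp4* and a median of 6. The windows of the later *Gsn* start sites held 2 and 12 CpG pairs. No window was found for *Ly6a*, *Osr1*, *Gli1* and *Mfap5*, which were therefore not searched. Windows were found for the other 6 of the 10 markers, which include *Pdgfra*, *Cd34* and *Dpt*, and for 13 of 16 other hedgehog pathway genes. The exact binding site of GLI proteins (GACCACCCA) was in none of them, and 0.225% of all windows hold it. A match describes the letters and not a site in use.

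The transcription factors did not pass the test in either direction. *Osr1*, on chromosome 12 from 9574442 to 9581500, encodes a zinc finger factor of muscle connective tissue that FAPs re-express after injury. It was 7.16 in scramble (SD 0.44) and 7.53 in MYTHO-KD (SD 0.47), a difference of 0.37 within the SD of either group (95% interval -0.22 to 0.96, unadjusted p = 0.195, limma). *Gli1*, on chromosome 10 from 127329882 to 127341886, encodes a hedgehog effector and is itself a target of that pathway. It was 6.57 in scramble (SD 0.19) and 6.27 in MYTHO-KD (SD 0.26). Of the 10 markers it had the lowest difference, -0.30, with a 95% interval from -0.70 to 0.10 (unadjusted p = 0.125, limma).

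Of the 2 matrix genes, *Mfap5* passed the test and *Dpt* did not. *Mfap5*, on chromosome 6 from 122505845 to 122529290, encodes a glycoprotein of fibrillin microfibrils. It was 8.84 in scramble (SD 0.32) and 9.92 in MYTHO-KD (SD 0.49), so that the averages lay 2.20 times the larger SD apart. The log2 difference was 1.08 (standard error 0.252, 95% interval 0.53 to 1.63, unadjusted p = 0.00107, adjusted p = 0.108, limma), or 211% of the scramble signal. *Dpt*, on chromosome 1 from 164796718 to 164824273, encodes dermatopontin, which binds decorin and is common to fibroblasts of most tissues. It was 11.92 in scramble (SD 0.46) and 12.22 in MYTHO-KD (SD 0.26), a difference of 0.30 with a 95% interval from -0.21 to 0.81 (unadjusted p = 0.226, limma).

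*Gsn*, on chromosome 2 from 35256359 to 35307902, encodes gelsolin, which severs and caps actin filaments and is abundant in fibroblasts. It was 14.78 in scramble (SD 0.49) and 15.46 in MYTHO-KD (SD 0.36). The difference of 0.68 (standard error 0.258, 95% interval 0.12 to 1.24, unadjusted p = 0.0221, adjusted p = 0.323, limma) had the highest p of those that passed. Without moderation of the variances its unadjusted p was 0.0667, and with unequal variances 0.0706, so that it no longer passed. The probe set covers a gene with 3 listed start sites and does not separate the plasma form of gelsolin from the cytoplasmic one.

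**Figure D2:**
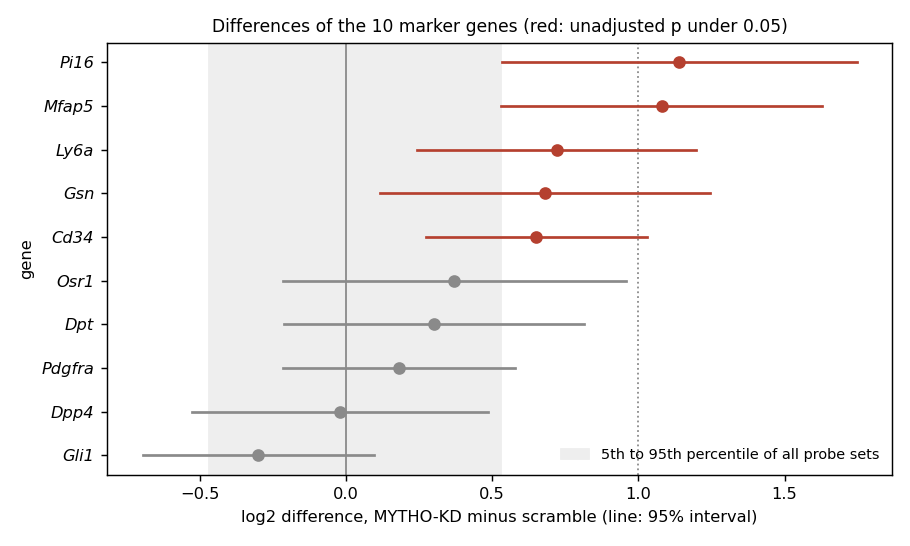
Log2 differences (MYTHO-KD minus scramble) of the 10 markers in order of size, with 95% intervals as lines, in red at an unadjusted p under 0.05. The grey band spans the 5th to 95th percentile of all probe sets (-0.47 to 0.53) and the dotted line marks 2-fold; *Pi16*, *Mfap5*, *Ly6a*, *Gsn* and *Cd34* lie above the band.

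The markers that passed were mostly bright. With the probe sets divided into 4 bins of like size by mean signal, 5 markers lay in the brightest bin and 4 of them passed upward, *Dpt* being the exception, against 11.2% of all probe sets in that bin. In the next bin *Pi16* passed and *Pdgfra* and *Osr1* did not, against 8.35%. *Dpp4* and *Gli1* lay in the bin below, where 4.07% passed upward. The part of signal level in the results of *Dpp4*, *Gli1* and *Pdgfra* was not tested. Of the 10 markers, *Pi16* had a larger difference than all but 0.590% of probe sets and *Mfap5* than all but 0.694%.

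**Figure D3:**
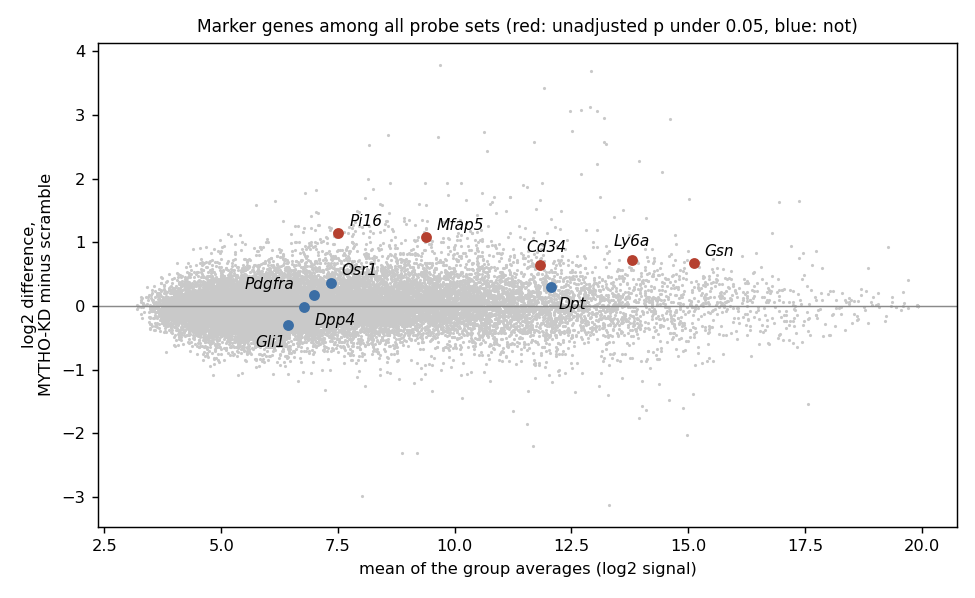
Log2 difference (vertical axis) against the mean of the group averages (log2 signal, horizontal axis) for all 22206 probe sets in grey, with the 10 markers in red (unadjusted p under 0.05) or blue (not). *Ly6a*, *Cd34*, *Gsn* and *Mfap5* stand in the upper part of the bright range, and *Dpp4*, *Gli1* and *Pdgfra* close to the median signal of all probe sets.

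Relatives and pathway partners of the markers were described from lists, with no test over a list. Of 192 list genes in all, 38 were higher and 4 lower at an unadjusted p under 0.05, and *Lum*, *Cd68* and *Lyz2* were the 3 with an adjusted p under 0.05 (limma), so the other list genes called higher or lower did not pass the adjustment. By the same rules 6.48% of all probe sets were higher, 5.52% lower and 0.275% passed the adjustment. In sign alone 10416 of the 22206 probe sets were higher and 11412 lower. The counts of every list below stand beside these shares. Among PDGF genes, 3 of 6 were higher by the same rule (unadjusted p under 0.05, limma) and none was lower. These were the ligands *Pdgfb* (0.83, from 8.42 to 9.25) and *Pdgfd* (0.74, from 6.72 to 7.46), which both act mainly through the beta receptor, and the receptor-like *Pdgfrl* (0.56). *Pdgfa* (-0.26, adjusted p = 0.733) and *Pdgfc* (-0.07, adjusted p = 0.953), which are among the ligands of the alpha receptor, and the beta receptor *Pdgfrb* itself (0.09, adjusted p = 0.918) did not pass. The median of this list was 0.325. *Pdgfrl* was dim, at percentile 26.2 of mean signal, and with dim probe sets left out the median was 0.09.

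The 16 other hedgehog genes had a median of -0.01, with 3 higher and 1 lower by that rule. *Gli2*, the main activating factor of the pathway, had a log2 difference of 0.83 (from 4.55 to 5.38, standard error 0.221, adjusted p = 0.154). Its mean signal was low, at percentile 15.1 of all probe sets, under the limit of 5.715 used for dim probe sets. *Disp1*, which releases the ligand, differed by 0.55 and *Gli3*, the main repressor, by 0.48. The ligand *Shh* was lower by 0.59 (from 7.71 to 7.12, adjusted p = 0.321). *Ptch1* (0.04, adjusted p = 0.982) and *Hhip* (-0.07, adjusted p = 0.923), which the pathway induces along with *Gli1*, did not pass. *Gli1* and *Gli2* thus had opposite signs, though that difference was not tested.

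Of the 6 microfibril partners of *Mfap5*, *Fbn1*, which encodes fibrillin-1, was higher by 1.03 (from 8.12 to 9.15, SDs of 0.62 and 0.60, adjusted p = 0.246, limma) and *Mfap2*, the closest relative of *Mfap5*, by 0.65 (adjusted p = 0.307). *Mfap3* was lower by 0.45 (adjusted p = 0.341), and the median was 0.53. None of the 6 CAP domain relatives of *Pi16* passed (median 0.34, highest *Crispld2* at 0.47), nor any of the 7 relatives of *Gsn* (median 0.03, from -0.31 to 0.53). In the DPP family, *Fap*, the fibroblast activation protein, was higher by 0.49 (adjusted p = 0.389) and the lysosomal *Dpp7* by 0.47 (adjusted p = 0.317), while *Dpp6*, a subunit of potassium channels without peptidase activity, was lower by 1.06 (adjusted p = 0.166, limma). *Podxl*, a sialomucin related to *Cd34*, was higher by 0.51 (adjusted p = 0.262) and *Podxl2* stood at 0.33 (adjusted p = 0.469). In the Ly6 family *Ly6e* (0.58, adjusted p = 0.317) and *Ly6c1* (0.51, adjusted p = 0.325) were higher and *Ly6d* lower by 0.49 (adjusted p = 0.370). Genes of this family are alike in sequence and may share signal with *Ly6a*; the median of its 9 measured relatives was -0.07.

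**Figure D4:**
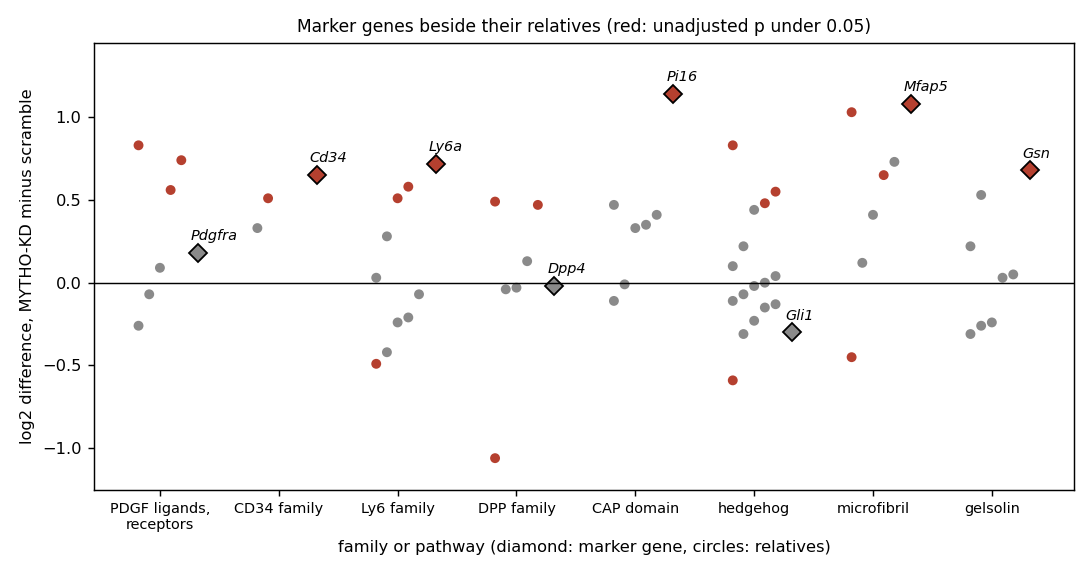
Log2 differences (MYTHO-KD minus scramble) of 8 markers (diamonds) beside relatives or pathway partners (circles), in red at an unadjusted p under 0.05. *Pi16*, *Gsn*, *Ly6a*, *Cd34* and *Mfap5* lie above every listed relative, *Mfap5* only just above *Fbn1*. *Dpp4* and *Gli1* lie at or below 0 beside relatives that lie on both sides of it.

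Other genes of the same cells were higher in part. Of 20 other fibroblast and FAP markers 6 passed upward and none downward, with a median of 0.30. *Lum*, a matrix proteoglycan, was higher by 1.49 (from 10.36 to 11.85, adjusted p = 0.0443), *Col3a1* by 1.43 (adjusted p = 0.102), *Pcolce*, which helps to cleave procollagen, by 1.15 (adjusted p = 0.120) and the chemokine *Cxcl14* by 0.74 (adjusted p = 0.200). In sign 15 of the 20 were higher and 4 lower. *Dcn* (0.28, adjusted p = 0.643), *Thy1* (0.03, adjusted p = 0.983), *Hic1* (-0.07, adjusted p = 0.926) and *Tcf7l2* (-0.01), named after their values were seen, did not pass, as *Pdgfra* did not.

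Genes that accompany *Pi16* and *Dpp4* in the adventitial state were higher for 5 of 15, with a median of 0.38 and none passed downward. The 4 largest of them were *Fbn1* (1.03), *Uchl1* (1.00, adjusted p = 0.204), *Igfbp6* (0.59) and *Ugdh* (0.57). *Cd55* and *Sema3c*, which are among the usual surface and secreted markers of that state, both stood at -0.26 (adjusted p = 0.622 and adjusted p = 0.619). Nerve can express *Uchl1* too. Of 9 genes of interstitial fibroblasts 3 were higher (*Lum*, *Cxcl14* and *Col15a1* at 0.51), with a median of 0.15. The interstitial list shares *Lum*, *Cxcl14*, *Smoc2* and *Mme* with the list of other fibroblast markers. *Fbn1* is in both the adventitial and the microfibril list. *Pdgfrl*, *Fap*, *Adam12*, *Hic1* and *Tcf7l2* are each in the list of other fibroblast markers and in another list. A shared gene that passed is counted in each of its lists.

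Of 11 genes of activated fibroblasts 4 were higher, with a median of 0.21: *Fn1* (1.35, adjusted p = 0.154), *Runx1* (1.22, adjusted p = 0.146), *Timp1* (1.04, adjusted p = 0.256) and *Postn* (0.83, adjusted p = 0.169), all limma. *Timp1* was marked as not expressed in scramble. The contractile genes *Acta2* (-0.13, adjusted p = 0.921) and *Tagln* (-0.15, adjusted p = 0.906), listed for myofibroblasts, were not among them. In RNA of whole muscle the signal of these 11 genes, passing or not, cannot be assigned to fibroblasts or myofibroblasts. Of 10 mesenchymal transcription factors *Klf4* (0.90, adjusted p = 0.248) and *Meox1* (0.58, adjusted p = 0.395) were higher, and the median was -0.03. The mean signal of *Meox1* was low, at percentile 8.4 of all probe sets. *Osr2*, the relative of *Osr1*, stood at 0.28 (adjusted p = 0.721).

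Markers of other cell types differed as well, and their part in the results above was not tested. For *Cd34* and *Ly6a*, the endothelial list is the nearest: 10 of 11 genes were higher in sign and 3 passed, *Kdr* (0.75), *Eng* (0.64) and *Egfl7* (0.41), with a median of 0.34 and a mean level of 9.53 in scramble and 9.86 in MYTHO-KD. *Pecam1* (0.22, adjusted p = 0.685) and *Cdh5* (0.37, adjusted p = 0.567), which define the cell type, did not pass. None of 8 satellite cell genes passed (median 0.18, *Pax7* at 0.18). All 12 macrophage genes were higher in sign and 6 passed, led by *Cd68* (2.53) and *Lyz2* (1.94), with a median of 0.63, a mean level of 7.36 in scramble and 8.22 in MYTHO-KD.

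Tendon markers are relevant to *Mfap5* and *Dpt*, which tendon and its sheath also express. Their median difference was 1.03, and 6 of 7 were higher in sign, but only *Thbs4* passed (1.90, adjusted p = 0.263, limma). Their SDs were large, with 2.11 in MYTHO-KD and 1.18 in scramble for *Fmod* and 1.69 in both groups for *Chad*, against at most 0.64 for the 10 markers. The mean level of the list was 8.44 in scramble and 9.40 in MYTHO-KD. All 6 adipocyte genes were lower in sign and none passed (median -0.51), again with large SDs such as 2.22 in scramble for *Adipoq*. Type I interferon response genes, considered because interferon can induce *Ly6a*, had a median of 0.04 and none of 11 passed. *Irf7* was marked as not expressed in both groups, and a part of interferon in the *Ly6a* value was not tested.

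**Figure D5:**
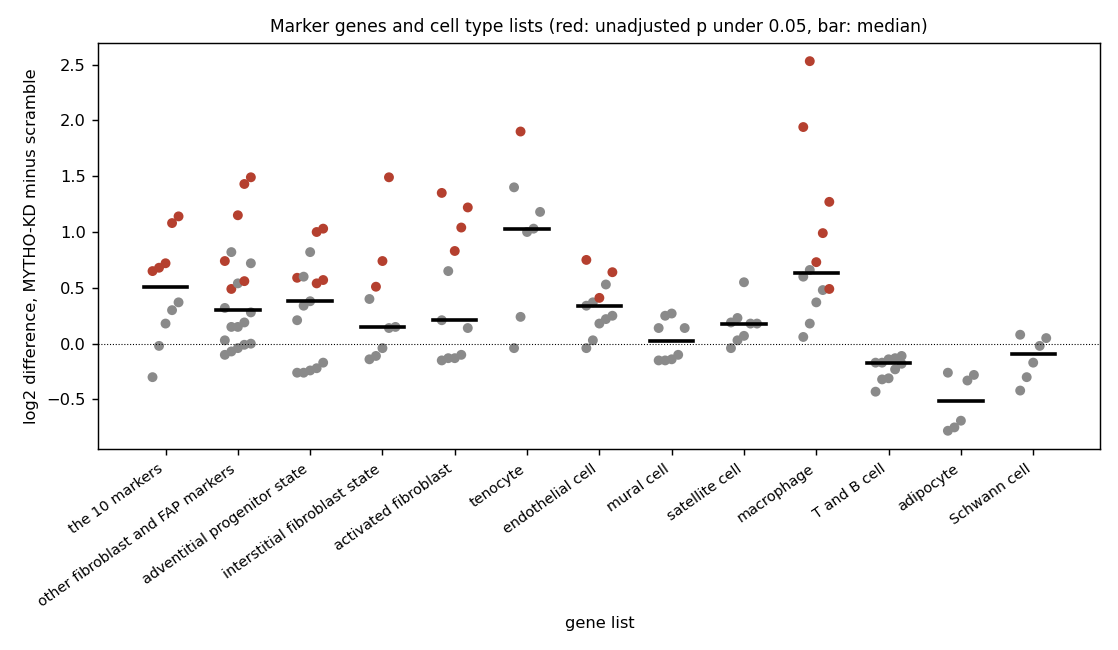
Log2 differences (MYTHO-KD minus scramble) of the 10 markers and of genes in lists for fibroblast states and other cell types, in red at an unadjusted p under 0.05, with black bars for medians. The median of the 10 markers (0.51) lies between those of the endothelial (0.34) and macrophage (0.63) lists, and the tenocyte list has the highest median of the lists drawn (1.03).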

How the data were processed

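Total RNA of GAS muscle was hybridized to Clariom S Mouse arrays (4 scramble, 4 MYTHO-KD). Per the paper's methods the authors used default settings of the Transcriptome Analysis Console (SST-RMA signals). The submitters' processing notes name the Affymetrix Expression Console, RMA and mm10. The deposited table holds, for each of 22206 probe sets, a log2 average, an SD and an expressed flag per group, with decimal commas. The kind of average is not given in the sources used here. The p-values assume plain means. The table's fold changes, p-values and false discovery rates are the authors' own comparison and were not used. It has 0 columns of single arrays.

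Differences are MYTHO-KD minus scramble. Variances pooled from the SDs (6 residual degrees of freedom) were moderated with squeezeVar of limma 3.58.1 in R 4.3.3 (prior SD 0.284, 5.85 prior degrees of freedom). Tests are two-sided, adjusted by Benjamini-Hochberg across the whole table, with 95% intervals from the moderated variance. The code was tested on simulated arrays. With several probe sets the brightest was taken. Symbols matched for all listed genes, 1 through a RefSeq synonym. Named are all 10 markers, the target gene, list genes with an unadjusted p under 0.05 (at most the 4 largest) and relatives set beside a marker; *Pecam1*, *Cdh5*, *Pax7*, *Fmod*, *Chad*, *Adipoq*, *Dcn*, *Thy1*, *Hic1*, *Tcf7l2*, *Cd55*, *Sema3c*, *Acta2* and *Tagln* were named outside this rule, after their values were seen. The markers and the 22 lists were chosen with earlier results of these data known. Labels give no mouse for an array, so p-values measure the spread between arrays only; the number of arrays limits the precision. The planned comparison of protein sequences was not run. Alternatives were no moderation, trend with robust fitting, unequal variances, dim probe sets left out, 1 probe set per symbol, subtraction of the median difference and other thresholds.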

Additional observations from a re-analysis of the deposited data

How the results depend on the processing

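The log2 differences of the 10 markers and of *D230025D16Rik* could not change under no moderation, trend with robust fitting or unequal variances, which alter only the variances. Omission of probe sets under the 30th percentile of signal (5.715) and 1 probe set per symbol also left these genes and their values as they were. Only subtraction of the median difference (-0.01) could move a direction. It reversed none of these genes and put the median of the markers at 0.52. *Pi16*, *Mfap5*, *Ly6a* and *Cd34* had an unadjusted p under 0.05 in limma's test or its variants in all 6 settings, and *Gsn* in 4. The number of markers higher at 2-fold with an unadjusted p under 0.05 (2) was 5 at 1.5-fold and 0 with an adjusted p under 0.05. The number of markers with an adjusted p under 0.05 was 0 in all 6 settings. At an adjusted p under 0.1 it was also 0 with the settings of the report, while trend with robust fitting put *Mfap5*, *Pi16* and *Cd34* under 0.1 and omission of dim probe sets *Mfap5*. Over the 6 settings the adjusted p ranged from 0.0581 to 0.452 for *Mfap5* and from 0.0695 to 0.525 for *Pi16*, and from 0.0979 to 0.402 for *Cd34*. Without dim probe sets the median turned to 0.03 for the mesenchymal transcription factors and to 0.03 for the Ly6 family. It was 0.65 for activated fibroblasts, 0.09 for the PDGF genes instead of 0.325, and 0.54 for the adventitial genes instead of 0.38. Fewer genes were left in these lists. No paired analysis was possible because the table holds group averages and SDs only; for the same reason leaving out each replicate was not run. No marker has a second probe set, so the choice of the dimmer one was not run.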

Other observations

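The lists for mural cells, Schwann cells and T and B cells had no gene that passed. Among 8 mural cell genes none passed an unadjusted p under 0.05 in limma's test, with a median log2 difference of 0.02 and a range from -0.15 to 0.27. Among 6 Schwann cell genes none passed (median -0.095, from -0.42 to 0.08). All 10 T and B cell genes were lower in sign, from -0.43 to -0.11 (median -0.175), and none passed. Many of them were near the floor of the signal. With dim probe sets left out 5 remained (median -0.23), and *Cd3g* was marked as not expressed in MYTHO-KD. *Dpp4*, which lymphocytes also express, stood at -0.02.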
